A study of Mus musculus with 2 samples.

Results

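The genes described here are the mouse transporters of sugars, monocarboxylates and fatty acids, taken as the protein-coding genes whose symbol belongs to the families Slc2, Slc5, Slc16 or Slc27. The rule matched 45 genes out of 22028 protein-coding genes and 55536 genes listed in all. The Slc2 family gave 12 of them, the Slc5 family 13, the Slc16 family 14 and the Slc27 family 6. A further matching symbol, Slc2a4rg-ps, belongs to a pseudogene and was left out. Polyadenylated RNA was sequenced from the whole forebrain of B6NCrl mice at birth (P0, age 0 days). The 2 libraries form 1 group and came from pup 1 and pup 3, each from a single forebrain and 10 ng of RNA. The labels give no genotype beyond the strain and no treatment. Sex was not collected, and both pups carry the same donor identifier, so the values measure the spread between these samples alone. With 1 group there was no contrast to test, and every difference below is between pups of that group and is given by size.

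Glucose enters cells through the facilitative carriers of the Slc2 family, the GLUT proteins, which move it down its gradient. The Slc5 family couples the uptake of sugars, inositol, iodide, choline, vitamins and monocarboxylates to sodium. The Slc16 family, the MCT proteins, carries lactate, pyruvate and ketone bodies with protons, while other members carry thyroid hormone, amino acids or creatine. The Slc27 proteins, the FATPs, help fatty acids into cells and join them to coenzyme A. The suckling rodent brain is known to burn ketone bodies and lactate beside glucose, and the endothelium of the blood-brain barrier carries both GLUT1 and MCT1.

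The libraries held 40964891 expected counts in pup 1 and 41230878 in pup 3. Levels are given in TPM, a length-corrected share of all transcripts, in which 1 read at an effective length of 1000 bases was worth 0.0383 in pup 1 and 0.0340 in pup 3. Mitochondrial genes held 2.47% of counts in pup 1 and 3.56% in pup 3. All 6 forebrain markers were detected, among them Bcl11b, a transcription factor of cortical and striatal neurons, at 57.9 TPM in pup 1 and 36.1 in pup 3. All 7 endothelial markers were also detected, with summed levels of 148 TPM in pup 1 and 145 in pup 3. Of 5 choroid plexus markers 4 were detected, with summed levels of 1377 TPM in pup 1 and 1078 in pup 3, of which Ttr, the transthyretin gene, gave nearly all. Of 3 liver markers, Alb stood at 0.02 TPM in each pup and Serpina1a at 0, whereas Apoa2 had 2.19 TPM in pup 1 and 3.15 in pup 3. Of 3 markers of kidney and gut none was detected, and Umod of the kidney and Fabp2 of the gut were at 0 in both.

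Of the 45 transporters, 28 were detected in both pups at a TPM of 1 or more, which is 62.2%. Over all protein-coding genes the share was 59.5%, so the transporters as a whole stood near the background. The families differed among themselves: 13 of 14 Slc16 genes, 8 of 12 Slc2 genes, 4 of 6 Slc27 genes and 3 of 13 Slc5 genes were detected. Slc5a7 and Slc2a10 passed in pup 1 alone, and 15 genes passed in neither pup. The median level of the 45 genes was 1.97 ± 0.431 TPM (SD, n = 2 pups), against 3.77 ± 0.788 TPM over protein-coding genes. A few genes held most of the RNA of each family. The summed level of the 6 Slc27 genes was 143.5 TPM in pup 1 and 107 in pup 3. That of the 14 Slc16 genes was 117 TPM in pup 1 and 98.3 in pup 3. The 12 Slc2 genes together had 113 TPM in pup 1 and 92.2 in pup 3. The Slc5 sum was the lowest of the 4 in either pup, at 30.4 TPM in pup 1 and 20.2 in pup 3.

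**Figure D1:**
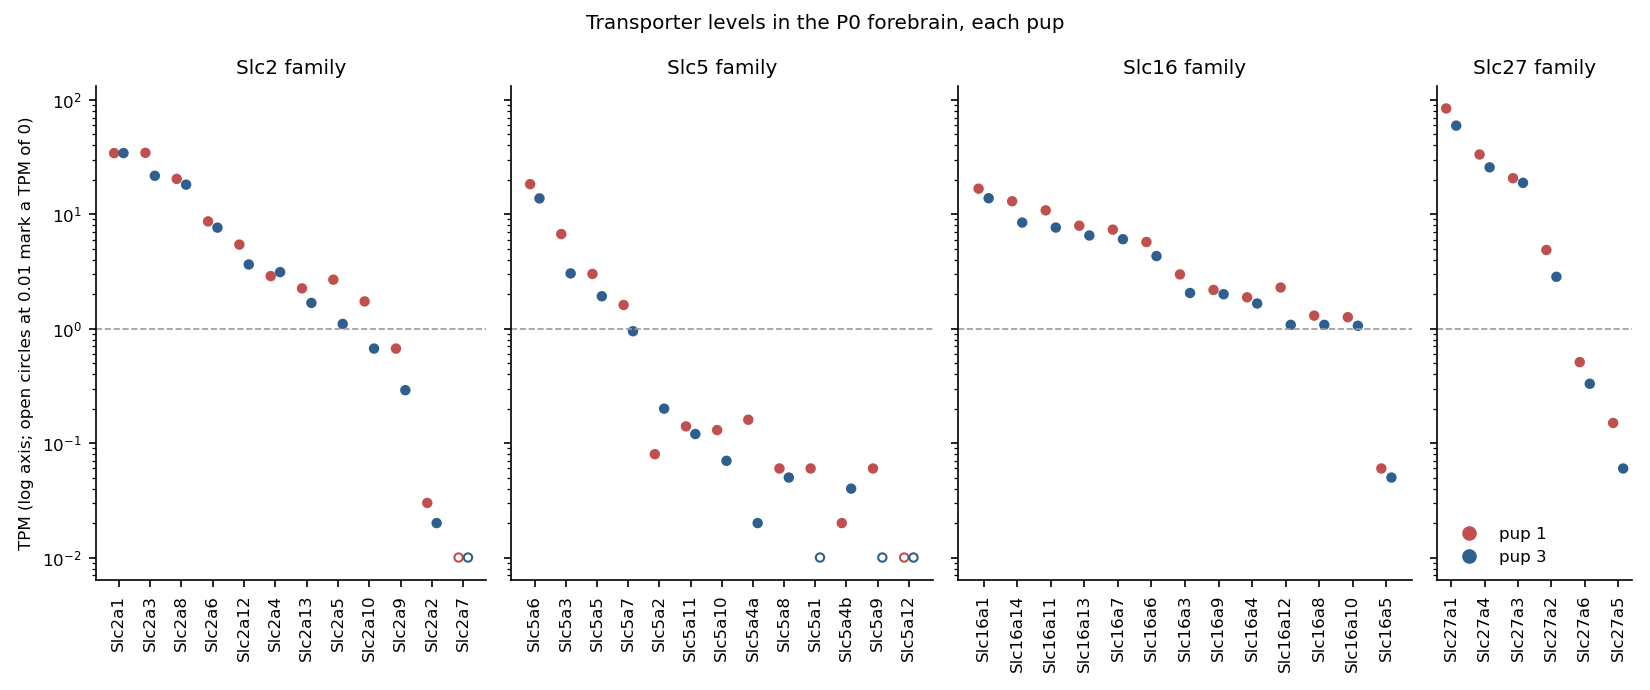
TPM of the transporters on a log axis, by family and in falling order of the mean, with pup 1 in red left of pup 3 in blue. The dashed line marks the detection minimum of 1 TPM, open circles mark a TPM of 0, and the Slc16 genes shown other than Slc16a5 lie above the line in both pups.

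By mean gene TPM the highest sugar transporter was Slc2a1, which encodes GLUT1, the glucose carrier of the blood-brain barrier and of glia. It lies at chr4:119108711-119137983 of mm10 on the plus strand. It had 34.2 TPM in pup 1 and 34.2 in pup 3, a mean of 34.2 ± 0.021 TPM (SD, n = 2 pups). Slc2a3, which encodes GLUT3, the high-affinity glucose carrier of neurons, had 34.4 TPM in pup 1 and 21.7 in pup 3. Within pup 1 the log2 ratio of Slc2a1 to Slc2a3 was -0.01, and within pup 3 it was 0.66. In gene TPM the pair was thus level in pup 1, while Slc2a1 was the higher gene in pup 3, and the order was not shared by the pups. Gene TPM counts all transcripts. On transcripts annotated as coding in release M21, Slc2a1 had 15.99 TPM in pup 1 and 17.07 in pup 3. Slc2a3 had 34.08 and 21.43 in the same order, so on that measure it was higher in both pups. The division of Slc2a1 over its transcripts changed with the annotation release, as given below. In whole tissue, fewer cells of a type and less RNA per cell cannot be told apart.

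Slc2a8, which encodes GLUT8, a carrier held on internal membranes, followed with 20.4 TPM in pup 1 and 18.1 in pup 3. Slc2a6, which encodes GLUT6, a lysosomal member, had 8.66 TPM in pup 1 and 7.64 in pup 3. Slc2a12, which encodes GLUT12, had 5.43 TPM in pup 1 and 3.64 in pup 3, and Tbpl1, which covers 9.61% of its exon bases on the opposite strand, had 58.6 TPM in pup 1 and 43.8 in pup 3. All 3 transporters were less than 2-fold apart between the pups. The remaining detected Slc2 genes were low. Slc2a4, the insulin-responsive GLUT4 of muscle and fat, averaged 3.00 ± 0.170 TPM, and Slc2a13, the proton-coupled inositol carrier HMIT, averaged 1.97 ± 0.403 TPM (SD, n = 2 pups each). Slc2a5, the fructose carrier GLUT5, had 2.68 TPM in pup 1 and 1.10 in pup 3. Its expected counts, 119 in pup 1 and 99 in pup 3, were closer than its TPM. Its effective length, which depends on the transcripts that the estimate used, was 1701 bases in pup 1 and 3059 bases in pup 3. The ratio of pup 1 to pup 3 was therefore 2.44 in TPM and 1.21 in CPM (counts scaled to library size).

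Slc2a10, which encodes GLUT10, had 1.73 TPM in pup 1 and 0.67 in pup 3, from 156 and 65 counts in the same order of pups. The urate carrier gene Slc2a9 was under 1 TPM in both pups. Slc2a2, the GLUT2 of liver, pancreas and gut, had 2 counts in each pup. Slc2a7, an intestinal member, had 0 counts in both, which allows up to 3 counts per library and covers counting error only.

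The monocarboxylate carriers in the strict sense are 4 Slc16 genes. Slc16a1, the MCT1 gene of the blood-brain barrier and glia, had 16.7 TPM in pup 1 and 13.8 in pup 3. Slc16a7, the high-affinity neuronal MCT2, had 7.34 TPM in pup 1 and 6.05 in pup 3. The log2 ratio of Slc16a1 to Slc16a7 was 1.18 within each pup, with a mean of 1.18 ± 0.00087 (SD, n = 2 pups). The expected counts gave another proportion, with 1890 for Slc16a1 and 673 for Slc16a7 in pup 1, and 1757 for Slc16a1 and 540 for Slc16a7 in pup 3. The effective length of Slc16a7 was 3515 bases in pup 1 and 3033 in pup 3, so the equal TPM ratios rest on that estimate. In M4 the mean log2 ratio of the pair was 1.62. Slc16a3, the lactate-exporting MCT4 of glycolytic cells and astrocytes, was lower, at 2.98 TPM in pup 1 and 2.05 in pup 3. The log2 ratio of Slc16a1 to Slc16a3 was 2.45 within pup 1 and 2.69 within pup 3. Slc16a8, the MCT3 of the retinal pigment epithelium and choroid plexus, stood just above the minimum at 1.30 TPM in pup 1 and 1.08 in pup 3. Among markers of retina and pigment epithelium, Rpe65 was at 0 in both pups, and Rlbp1 had 33.9 TPM in pup 1 and 41.6 in pup 3.

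In gene TPM the glucose carrier Slc2a1 exceeded the monocarboxylate carrier Slc16a1 by a log2 ratio of 1.03 in pup 1 and 1.30 in pup 3. On coding transcripts of release M21 alone, Slc2a1 had 15.99 TPM in pup 1 and 17.07 in pup 3. Slc16a1 had 16.73 and 13.8 in the same order, so on that measure the order was not shared by the pups. The chaperones that take MCT proteins to the cell surface were far apart. Bsg, which encodes basigin, the partner of MCT1 and MCT4, had 865 TPM in pup 1 and 807 in pup 3. Emb, which encodes embigin, the partner of MCT2, had 9.59 TPM in pup 1 and 6.79 in pup 3.

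Other Slc16 genes carry amino acids and hormones. Slc16a10, which carries aromatic amino acids and thyroid hormone, had 1.26 TPM in pup 1 and 1.06 in pup 3. Under the older annotation release M4 it averaged 0.475 TPM, below the detection minimum. Of 7 genes of thyroid hormone handling, 6 were detected. They included Slco1c1, another thyroid hormone carrier of the barrier, at 27.9 TPM in pup 1 and 27.2 in pup 3, and the receptor gene Thra at 192 TPM in pup 1 and 178 in pup 3. Dio1, the deiodinase of liver and kidney, was the gene not detected.

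The other Slc16 genes have less settled roles. Slc16a14 had 12.99 TPM in pup 1 and 8.46 in pup 3. Slc16a11, which human genetics ties to type II diabetes, had 10.8 TPM in pup 1 and 7.65 in pup 3. Slc16a13, which lies beside Slc16a11 on chromosome 11, had 7.94 TPM in pup 1 and 6.52 in pup 3. Each was higher in pup 1 on the TPM scale, by less than 2-fold. Slc16a6, known in zebrafish for the export of ketone bodies from the liver, had 5.72 TPM in pup 1 and 4.31 in pup 3. Amz2, on the opposite strand, covers 21.5% of its exon bases and was more abundant, at 38.2 TPM in pup 1 and 36.1 in pup 3. The strand setting of the libraries is not given in the sources used here, so the level of Slc16a6 is uncertain. Slc16a9, Slc16a4 and the creatine carrier Slc16a12 averaged between 1.69 and 2.09 TPM. Slc16a5 had 3 counts in each pup.

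The highest of all 45 transporters was Slc27a1, which encodes FATP1, a fatty acid carrier and acyl-CoA synthetase, at chr8:71568882-71587302 on the plus strand. It had 84.0 TPM in pup 1 and 59.5 in pup 3, a mean of 71.8 ± 17.4 TPM (SD, n = 2 pups), and ranked 2333 among the protein-coding genes, in the top 10.6%. Slc27a4, which encodes FATP4, had 33.3 TPM in pup 1 and 25.7 in pup 3. Slc27a3, which encodes an acyl-CoA synthetase of the family, had 20.7 TPM in pup 1 and 18.8 in pup 3. Slc27a1 thus stood above Slc27a4 in both pups, with a log2 ratio of Slc27a4 to Slc27a1 of -1.33 in pup 1 and -1.21 in pup 3. Slc27a2, the very-long-chain synthetase of liver and kidney, had 4.87 TPM in pup 1 and 2.84 in pup 3. Slc27a6, known from heart, averaged 0.420 TPM, and Slc27a5, the bile acid ligase of liver, averaged 0.105 TPM. Among the named genes below Slc27a1 in mean level came Slc2a1, then Slc27a4 at 29.5 ± 5.36 TPM and Slc2a3 at 28.1 ± 8.99 TPM (SD, n = 2 pups each). The last pair did not differ beyond its spread, and Slc2a3 was not below Slc2a1 in pup 1.

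Most Slc5 genes were low or at 0. The highest was Slc5a6, which encodes the sodium-dependent carrier of biotin, pantothenate and lipoate, at 18.3 TPM in pup 1 and 13.8 in pup 3. It alone made up 60.3% of the summed Slc5 level in pup 1 and 68.2% in pup 3. Atraid, which overlaps 9.92% of its exon bases on the opposite strand, stood at 201 TPM in pup 1 and 204 in pup 3. The part of that overlap in the level of Slc5a6 was not tested. Slc5a3, which encodes the inositol carrier SMIT1 at chr16:92058322-92087473 on the plus strand, had 6.71 TPM in pup 1 and 3.04 in pup 3. Slc5a5, the iodide carrier of the thyroid, had 3.01 TPM in pup 1 and 1.92 in pup 3. The thyroid marker Tg was at 0.30 TPM in pup 1 and 0.10 in pup 3. Slc5a7, the choline carrier of cholinergic nerve endings, had 1.61 TPM in pup 1 and 0.95 in pup 3. Slc18a3, the vesicular acetylcholine carrier, likewise had 3.61 TPM in pup 1 and 2.41 in pup 3, and Chat, the synthesizing enzyme, had 0.39 TPM in pup 1 and 0.12 in pup 3.

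The sodium-glucose carriers of gut and kidney were near the floor. Slc5a1, the intestinal SGLT1, had 6 counts in pup 1 and 0 in pup 3. Slc5a2, the renal SGLT2, had 3 counts in pup 1 and 2 in pup 3, and BC017158 covers 20.6% of its exon bases on the opposite strand. Slc5a4a had 8 counts in pup 1 and 1 in pup 3, and Slc5a4b had 2 counts in pup 1 and 4 in pup 3. All of these counts were under 10, so a few reads set any difference between the pups. Slc5a8, a sodium-coupled monocarboxylate carrier, had 8 counts in each pup, and Slc5a12, its relative in kidney and gut, had 0 in both. The remaining members Slc5a9, Slc5a10 and Slc5a11 had at most 8 counts in a pup.

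Of 61 partner genes in 10 lists, 57 were detected in both pups, where 59.5% of protein-coding genes were. The lists were chosen with earlier results of these data known, so no conclusion is drawn from that difference. The list medians ran from 3.01 TPM for acetylcholine and 3.14 TPM for thyroid hormone handling to 422 TPM for the MCT chaperones. All 17 genes of glycolysis and lactate were detected, with a list median of 186 ± 23.6 TPM (SD of the pups' medians, n = 2). Hk1, the hexokinase of brain, had 116 TPM in pup 1 and 86.5 in pup 3, whereas Hk2, its counterpart of muscle and growing tissue, had 2.28 TPM in pup 1 and 1.00 in pup 3. Ldha, the lactate dehydrogenase subunit of glycolytic tissue, exceeded Ldhb, the subunit of oxidative tissue, in both pups: the log2 ratio of Ldhb to Ldha was -0.82 in pup 1 and -0.80 in pup 3. All 4 genes that bring pyruvate into mitochondrial oxidation were detected, with a median of 212 ± 7.68 TPM. All 5 ketone body genes were detected too. Oxct1, the enzyme that activates ketone bodies for use, had 346 TPM in pup 1 and 298 in pup 3. For fatty acids, 9 of 10 binding and activation genes were detected, led by Fabp7, the fatty acid binding protein of radial glia, at 2151 TPM in pup 1 and 2326 in pup 3. Cd36, a fatty acid carrier of other tissues, reached 1 TPM in pup 3 alone. In the inositol list, 4 of 5 genes were detected, with Isyna1, the inositol-making enzyme, at 87.9 TPM in pup 1 and 74.2 in pup 3. Miox, the inositol-degrading oxygenase of kidney, was at 0 in both. All 5 genes of biotin and pantothenate use were detected, with a median of 7.87 ± 2.50 TPM, and all 3 genes of glucose transporter regulation, including Txnip, which promotes GLUT1 uptake from the membrane, at 95.8 TPM in pup 1 and 107 in pup 3.

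Between the pups, no transporter passed 2-fold on the scale of TPM + 1. Where either pup had at least 5 TPM, 0 of 17 transporters had a TPM + 1 over 2-fold apart, beside 287 of 11477 genes in all, which is 2.5%. On the TPM scale 28 of the 30 transporters with a mean TPM of 1 or more were higher in pup 1, where 79.6% of all 15463 such genes were higher in pup 1 as well. The median log2 of TPM + 1 in pup 1 over pup 3 was 0.35 for the 30 transporters and 0.24 for all genes. When each gene was centred on genes of like length, the transporters' median was 0.0066. By that measure 15 of the 30 were higher in pup 1, beside 49.99% of all genes. After scaling of the counts by TMM, 18 of the 30 were higher in pup 1, beside 48.6% of all genes. The transporters' median was then 0.09, smaller than on TPM but in the same direction, while single transporters changed direction with the scaling. On TPM, FPKM, CPM, CPM with TMM scaling and counts over DESeq2 size factors alike, 17 transporters were higher in pup 1 and 2 were lower. The direction of the other 11 differed between scalings. The same count over all genes was not computed, so whether this division is particular to the transporters was not tested. All 5 scalings start from the same counts, so their agreement is not 5 separate checks. By the like-length centring, which is not among them, Slc27a4, Slc16a7 and Slc2a13 were lower in pup 1, at -0.035, -0.10 and -0.18. The rest of the 17 stayed higher. Of the 17, Slc16a11 and Slc2a5 had CPM counting intervals that included 0, from -0.07 to 0.38 and from -0.12 to 0.67.

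On TPM + 1 Slc5a3 had the largest difference of the 30, a log2 ratio of 0.93, which is 0.69 above the median of all genes. Its counts were 1893 in pup 1 and 966 in pup 3, a log2 ratio of 0.98 in CPM with an exact 95% counting interval from 0.87 to 1.09. The log2 ratio was 0.83 with TMM scaling and 0.47 when centred on genes of like length. With a smaller pseudocount of 0.1 it was 1.12, past 2-fold, and the plain TPM ratio was 2.21. Its same-strand neighbour Mrps6 shares 1.46% of its exon bases and had 130 TPM in pup 1 and 114 in pup 3. The other inositol carrier, Slc2a13, had 2.25 TPM in pup 1 and 1.68 in pup 3, and the log2 ratio of Slc5a3 to Slc2a13 was 1.53 within pup 1 and 0.82 within pup 3. Slc2a10 and Slc5a7, which stayed under 5 TPM, had CPM ratios of pup 1 to pup 3 of 2.42 and 1.88, and in CPM the ratio of Slc2a10 was above the 1.97 of Slc5a3. In plain TPM the ratio was 2.58 for Slc2a10, 2.44 for Slc2a5 and 2.12 for Slc16a12. With the pseudocount of 0.1 the log2 ratios of Slc2a10 and Slc2a5 were 1.25 and 1.21, above that of Slc5a3. When centred on genes of like length Slc2a5 had 0.55, also above Slc5a3. The first place of Slc5a3 thus did not hold under every measure. Among members with a mean of 10 TPM or more, Slc2a3, Slc16a14 and Slc27a1 came first, with log2 ratios of 0.64, 0.56 and 0.49 on TPM + 1 and of 0.36, 0.38 and 0.24 with TMM scaling. Slc2a1 and Slc2a4 were the 2 genes lower in pup 1 under all 5 scalings. For Slc2a1 the log2 ratio was -0.0012 on TPM + 1 and -0.32 with TMM scaling, and in CPM it was -0.20 with a counting interval from -0.28 to -0.12. On posterior mean TPM, outside the 5 scalings, the ratio of Slc2a1 was 0.0033. For Slc2a4 the CPM ratio was -0.21 with a counting interval from -0.53 to 0.11, which includes 0. Some marker lists of cell types were also higher in pup 1 on the TPM scale, and others were not. All 4 neuronal markers were higher there, none of them at 0, as were all 4 of the oligodendrocyte lineage and all 5 of the choroid plexus, beside 79.6% of all genes. In other lists, 5 of 7 endothelial and 3 of 4 radial glial and astrocyte markers were higher in pup 1. So were 2 of 4 microglial, 2 of 4 meningeal and fibroblast, and 1 of 4 red cell markers. The red cell markers summed to 1617 TPM in pup 1 and 2303 in pup 3. The neuronal markers summed to 3458 TPM in pup 1 and 3006 in pup 3, while Neurod6, a gene of cortical excitatory neurons from the forebrain list, had 197 TPM in pup 1 and 316 in pup 3. The median log2 ratio was 0.41 for the neuronal list and 0.40 for the radial glial and astrocyte list. The lists are small, and whether their counts differ from the share over all genes was not tested. The part of these markers in the differences was not tested.

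**Figure D2:**
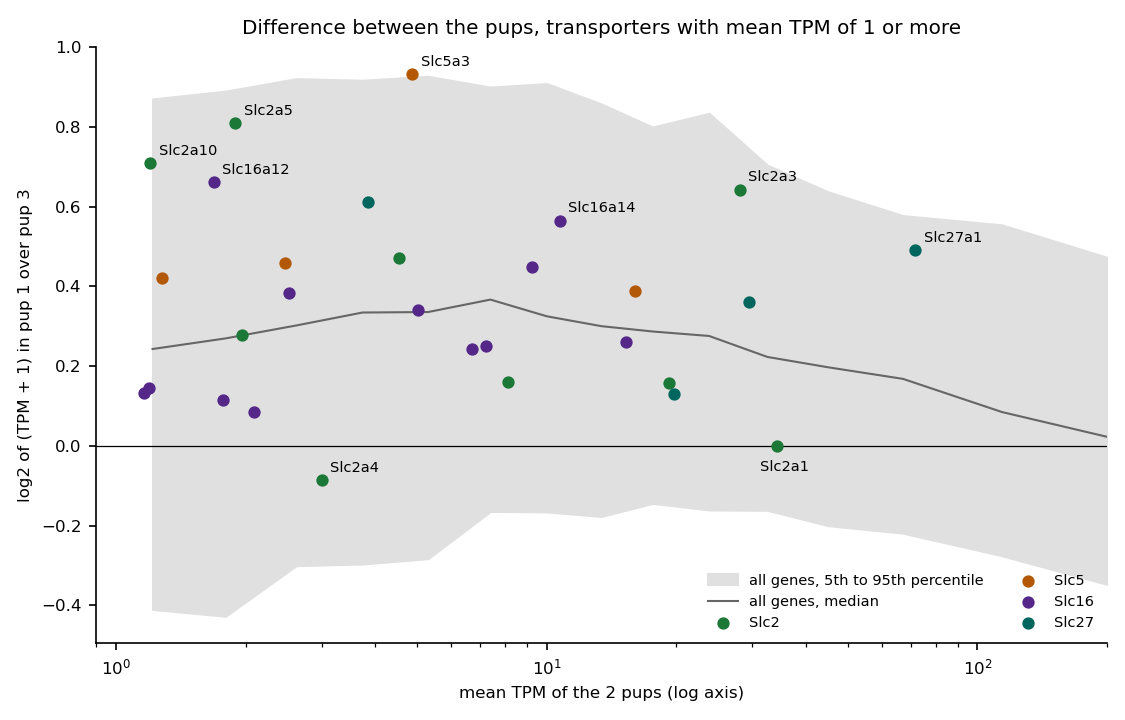
Log2 of TPM + 1 in pup 1 over pup 3 against the mean TPM of transporters at 1 TPM or more, coloured by family. The grey band spans the 5th to 95th percentile and the grey line the median of all genes at that level, and Slc5a3 at 0.93 is the uppermost point.

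The transcript tables divide each gene over its annotated transcripts. Both pups had at least 5 TPM of 14 transporters, and 13 of these have more than 1 transcript. In 12 of the 13 the leading transcript was annotated as protein coding, and in 12 it was the same in both pups. The share of the gene's TPM on coding transcripts had a median of 84.2% and was under 80% in 6 genes. The same values over all genes were not computed, so whether these are usual for the tables was not tested. Slc2a3, Slc27a4, Slc5a6, Slc16a13 and Slc16a14 had over 90% on coding transcripts in both pups. In Slc27a1, 35.1% of the TPM in pup 1 and 35.6% in pup 3 lay on transcripts with a retained intron, which are not annotated as coding. Its leading coding transcript, Slc27a1-207, held 37.5% in pup 1 and 38.0% in pup 3. Slc16a11 had 54.7% on coding transcripts in pup 1 and 59.7% in pup 3.

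**Figure D3:**
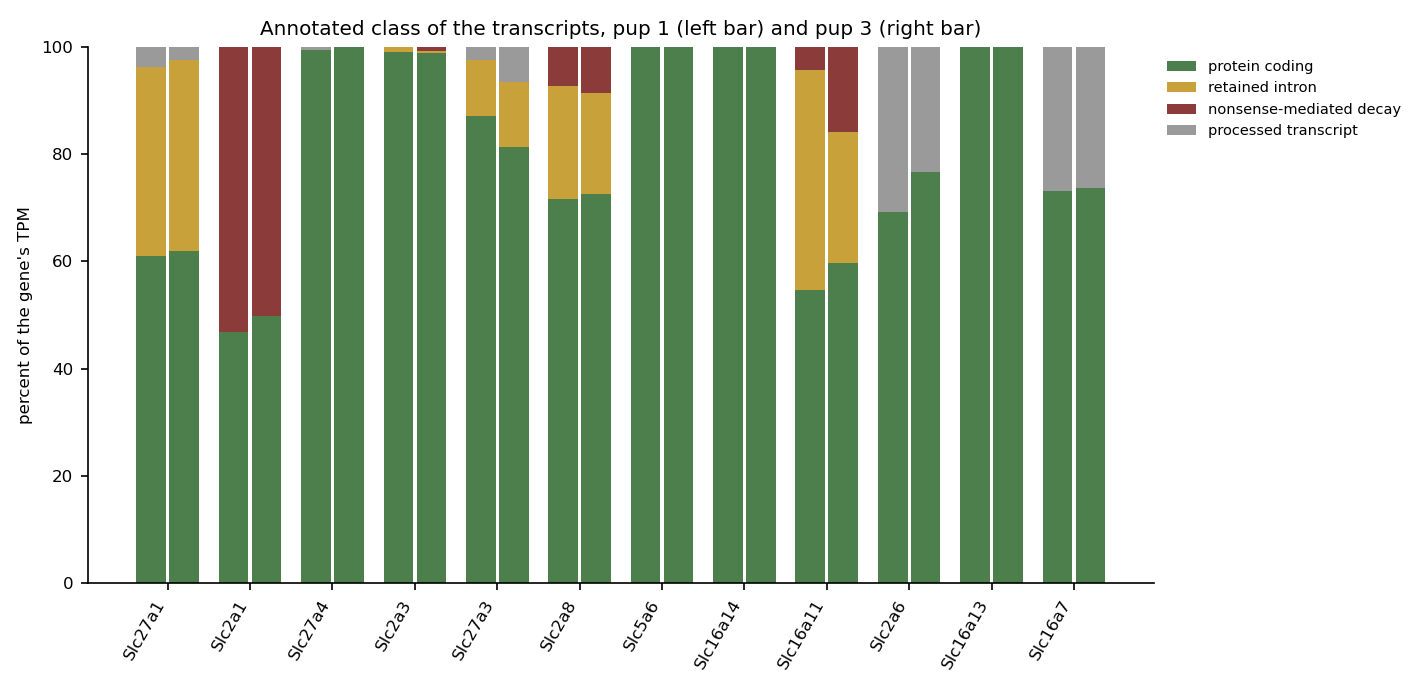
Percent of each gene's TPM by annotated transcript class, for transporters with several transcripts and at least 5 TPM in each pup, pup 1 left and pup 3 right in each pair of bars. Slc2a1 carries the largest share on a nonsense-mediated decay transcript, and Slc27a1 and Slc16a11 carry retained introns.

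Slc2a1 was the gene whose leading transcript was not coding. Slc2a1-204, annotated as a target of nonsense-mediated decay, the pathway that removes messages with an early stop, took 53.2% of its TPM in pup 1 and 50.1% in pup 3. The coding transcript Slc2a1-201 took 45.0% in pup 1 and 49.4% in pup 3. Slc2a1-201 has 10 exons and Slc2a1-204 lacks exon 5. That exon has 163 bases, which leaves 1 base over after division by 3, so its loss shifts the reading frame. The junction of Slc2a1-204 is shown because it makes the early stop codon, which the capitals mark, at bases 4 to 6 of exon 6.
Slc2a1-204, end of exon 4 and start of exon 6: atccttattgcccagtgcTGAagaagcttc

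The division of Slc2a1 changed with the annotation. In the tables made with release M4, Slc2a1-204 took 0.56% in pup 1 and 0.53% in pup 3, and Slc2a1-201 took 98.2% in pup 1 and 99.1% in pup 3. The gene's mean level was 37.5 TPM in M4, beside 34.2 TPM in M21. Slc2a1-201 has 3260 bases in M21 and 2607 in M4, and Slc2a1-204 has 2241 in M21 and 1316 in M4. Of 2142 stretches of 100 bases in the M21 form of Slc2a1-204, 98 are not in Slc2a1-201, so most of its sequence cannot tell the pair apart. Slc2a1-201 has 1117 stretches that are not in Slc2a1-204. By expected count Slc2a1-201 led in both pups, with 1269 counts against 1018 for Slc2a1-204 in pup 1, and 1572 against 1081 in pup 3. The share of Slc2a1-204 in the forebrain is therefore uncertain in these tables. For Slc27a1, M4 lists a single transcript, at 63.3 TPM in pup 1 and 43.4 in pup 3. Its mean was 53.4 TPM in M4, beside 71.8 TPM in M21, and it was the highest of the 45 genes in both releases.

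**Figure D4:**
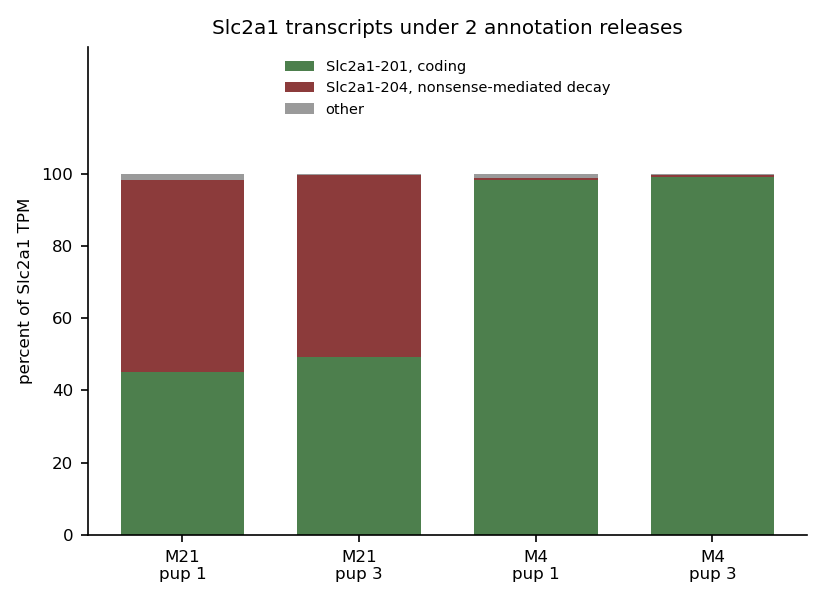
Percent of Slc2a1 TPM on the coding transcript, the nonsense-mediated decay transcript and the others, for pup 1 and pup 3 under annotation releases M21 and M4. The decay transcript holds 53.2% and 50.1% under M21 and 0.56% and 0.53% under M4, in the order pup 1 and pup 3.

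RefSeq promoter windows of 300 bases (GRCm38.p6, 250 bases before the start site and 50 after it) were at hand for 33 of the 45 genes. In 25 of them the start site lay within 100 bases of the start of the leading transcript. The farthest were Slc5a11 at 20754 bases and Slc2a9 at 3203, so not every window is that of the leading transcript. Vertebrate promoters of broadly used genes are often rich in CpG, the dinucleotide that is elsewhere depleted by methylation. The 22 detected transporters with a window had a median of 19 CpG, against 4 in the 11 that were not detected. Over all protein-coding genes the medians were 21 for those detected in both pups and 3 for the others, a contrast in the same direction. The windows were chosen by unlike rules, here and in the shares below. For a transporter it was the window nearest the start of its leading transcript, and for all genes the first listed. At least 10 CpG stood in 86.4% of the windows of detected transporters and in 27.3% of the others, beside 83.7% and 18.9% over protein-coding genes. The GC box GGGCGG, searched on both strands, was in 63.6% of the windows of detected transporters and in 18.2% of the others, against 65.7% and 19.2% over protein-coding genes, and its central CG is counted among the CpG. TATAAA, searched in the same way, was in 9.09% and 18.2% of the transporter windows and in 6.64% and 23.1% of the windows of protein-coding genes. A match of letters is a description and no evidence that a factor binds.

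The windows of Slc2a1 and Slc16a1, carriers of the blood-brain barrier, are shown beside those of Slc2a2 and Slc5a1, carriers of liver, gut and kidney, with every CG in capitals. They were chosen after their values were seen. Slc2a1 (chr4:119108495-119108794, plus strand) has 18 CpG and Slc16a1 (chr3:104638414-104638713, plus strand) has 42. Slc2a2 (chr3:28697653-28697952, plus strand) has 2 and Slc5a1 (chr5:33103969-33104268, plus strand) has 10.
Slc2a1: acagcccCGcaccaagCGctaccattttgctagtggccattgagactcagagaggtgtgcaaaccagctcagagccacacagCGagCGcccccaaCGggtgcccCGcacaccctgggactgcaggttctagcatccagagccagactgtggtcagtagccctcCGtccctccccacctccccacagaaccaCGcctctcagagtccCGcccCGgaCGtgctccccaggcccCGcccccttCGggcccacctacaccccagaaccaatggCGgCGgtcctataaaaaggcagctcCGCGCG
Slc16a1: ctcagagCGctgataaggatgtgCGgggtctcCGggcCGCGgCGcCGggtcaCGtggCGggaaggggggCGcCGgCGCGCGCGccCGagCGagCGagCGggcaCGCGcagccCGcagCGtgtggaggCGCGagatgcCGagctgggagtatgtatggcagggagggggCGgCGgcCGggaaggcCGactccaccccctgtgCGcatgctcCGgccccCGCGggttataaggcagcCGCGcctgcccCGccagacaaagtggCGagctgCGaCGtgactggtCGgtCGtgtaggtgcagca
Slc2a2: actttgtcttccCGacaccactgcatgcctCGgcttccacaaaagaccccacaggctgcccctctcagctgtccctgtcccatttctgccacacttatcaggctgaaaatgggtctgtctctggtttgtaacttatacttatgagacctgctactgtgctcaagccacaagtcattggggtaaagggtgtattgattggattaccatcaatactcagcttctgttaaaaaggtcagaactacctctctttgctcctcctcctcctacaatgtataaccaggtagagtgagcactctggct
Slc5a1: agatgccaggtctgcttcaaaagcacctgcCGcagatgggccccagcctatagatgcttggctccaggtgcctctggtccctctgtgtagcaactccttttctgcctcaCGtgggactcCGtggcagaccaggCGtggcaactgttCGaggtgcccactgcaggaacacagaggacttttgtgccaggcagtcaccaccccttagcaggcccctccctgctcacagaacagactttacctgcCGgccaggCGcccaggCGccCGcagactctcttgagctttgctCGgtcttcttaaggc
The exceptions ran both ways. Among detected genes, Slc16a8 had 1 CpG and Slc16a4 had 3, and Slc5a8, with 8 counts in each pup, had 20.

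**Figure D5:**
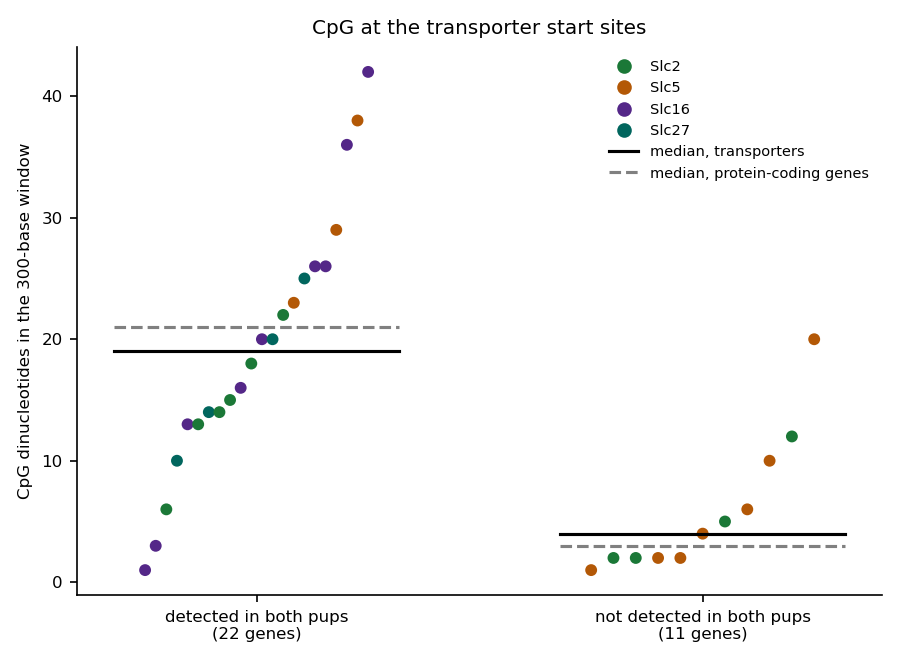
CpG dinucleotides in the 300-base promoter window of 22 transporters detected in both pups and 11 not detected in both, coloured by family, with solid lines at their medians and dashed lines at those of protein-coding genes. The medians are 19 and 4 for transporters and 21 and 3 for protein-coding genes.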

How the data were processed

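PolyA RNA-seq libraries of 2 newborn forebrains were primed with oligo-dT and made by tagmentation, per the labels' protocols. The authors deposited expected counts (estimated counts, with reads that map to several places divided among features), TPM, posterior mean TPM and FPKM per gene and transcript, for mm10 with annotation releases M21 and M4, per the file headers. In the transcript tables the authors also give isoform percent, the part of a gene's TPM on each transcript. The software behind them is not given in the sources used here. Effective length was 99 bases under the deposited length in 99.99% of features, so low counts on short transcripts give high TPM.

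Symbols, biotypes and exons came from the M21 annotation, in which every M21 gene had a symbol. Of 43346 genes in M4, 42462 had one once version suffixes were removed. Levels are TPM in each pup. Genes were called detected at 1 TPM in both pups, and differences are log2 of TPM + 1 in pup 1 over pup 3, with exact 95% intervals for the ratio of rounded counts that cover counting error alone. Pair ratios used a pseudocount of 0.1. Shared sequence was counted as stretches of 100 bases: 33 of the 45 genes shared none with another gene, and 6 shared over 5%. Scaling factors came from edgeR 4.0.16 (TMM) and DESeq2 1.42.0 in R 4.3.3, and all else from Python 3.11.15 with pandas 2.3.3. The log2 ratio and the call of over 2-fold were tested on simulated counts, and the other steps were not. Members, lists and pairs were chosen with earlier results of these data known. Every transporter could be named, in full where its mean was 5 TPM or more, among the 3 highest of its family or over 2-fold apart. Samples were grouped by the labels, with no test, since there is 1 group. Alternatives changed the release, unit, minimum, pseudocount, scaling and the pup left out. Centring on all genes was added after seeing the data. Some genes and a sequence, counted in the totals, are not reported here.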

Additional observations from a re-analysis of the deposited data

How the results depend on the processing

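Counts of detected transporters, overall and by family, stayed within 1.5 times of the values given under every alternative run, from 21 of 45 at a minimum of 2 TPM to 30 at a minimum of 0.5 TPM. Without pup 1 the count was 28, the median level 1.68 TPM and the partner genes detected 58, and without pup 3 these were 30, 2.29 TPM and 57. The number of transporters over 2-fold apart was 1, Slc5a3, with a pseudocount of 0.1 and also of 0.5, and 0 under the other alternatives. The median difference of the 30 transporters was 0.0898 with TMM scaling, 0.0968 with DESeq2 size factors and 0.0066 when centred on genes of like length. The median of all genes was -0.0094, -0.0176 and 0 in the same order. Only the last is set by construction, while TMM and DESeq2 scaling aim to bring most genes near 0. Under TPM, FPKM, CPM, TMM and DESeq2 scaling the transporters' median exceeded that of all genes by 0.10 to 0.11. Genes over 2-fold apart in all numbered 287 of 11477 on TPM, 103 with TMM scaling, 199 with DESeq2 size factors and 439 with a pseudocount of 0.1. No pair with the same sign in both pups reversed, and in expected counts, which keep transcript length, 8 of 11 pair ratios moved by more than their spread. Between releases, 6 of 45 levels moved by more than theirs, among them Slc27a1 at 53.4 TPM in M4. No paired analysis was possible because the 2 libraries form 1 group. Depth limits the members under 10 counts, for which a few reads set the ratio between pups.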
